A study of Homo sapiens with 6 samples.

Results

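BATF, BATF2, BATF3, ATF2, ATF3, ATF7 and JDP2 encode basic leucine zipper transcription factors that pair with JUN proteins, and their surroundings were searched for binding of FOSL2 and JUNB in HaCaT, an established keratinocyte line from human skin that became immortal in culture. The 7 genes were taken by name out of 19974 protein-coding genes on the autosomes and X. Binding regions that reached into the gene body or the 100 kb on either side of it (hg38) were assigned to that gene. By this rule the genes had 69 of 75703 FOSL2 regions and 58 of 40061 JUNB regions, counting a region near a pair of these genes once. Binding was measured by chromatin immunoprecipitation and sequencing (ChIP-seq) in 6 libraries, 3 for FOSL2 and 3 for JUNB, made from crosslinked, sonicated cells by ChIPmentation, where a transposase adds the adapters to the precipitated chromatin. Cells were grown in serum-containing medium with no treatment named in the labels, and each factor was precipitated with its own antibody. Each factor has a single deposited list that covers its 3 libraries, so the values carry no error between replicates. Sequencing depth is unknown. No input or other control library was used here.

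AP-1 is a dimer of leucine zipper proteins, classically of a FOS and a JUN protein such as FOSL2 and JUNB. BATF proteins take the place of FOS in dimers with JUN but lack its activation domain, and BATF and BATF3 also work with the IRF factors of immune cells. ATF2 and ATF7 are close relatives that are phosphorylated by the stress kinases JNK and p38 and bind the CRE-type element. ATF3 is induced by stress and wounding in many cells, and JDP2 is a related repressor that competes for AP-1 sites. The question was where the 2 AP-1 subunits sat around these related genes and how the genes differed.

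All 7 genes had regions of both factors and at least 1 shared region, meaning a region with 1 bp or more in common with the other list. This says little by itself, since 96.4% of all protein-coding genes had a FOSL2 region within 100 kb of the body, 90.9% a JUNB region and 87.4% a shared one. FOSL2 regions numbered 17 at ATF7, 16 at ATF3, 14 at BATF2, 12 at BATF3, 10 each at BATF and JDP2 and 7 at ATF2. JUNB regions numbered 15 at ATF3, 12 each at BATF2 and ATF7, 11 at BATF3, 9 at JDP2, 8 at BATF and 6 at ATF2. The median protein-coding gene had 9 FOSL2 regions (quartiles 5 and 12) and 5 JUNB regions (2 and 8). ATF3 thus led in JUNB and ATF2 was last in both lists.

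Long genes have longer windows, so the counts were also taken per 100 kb of window. BATF2 had 6.70 FOSL2 regions per 100 kb, ATF3 6.27, BATF3 5.62, ATF7 5.34, BATF 4.45, JDP2 4.05 and ATF2 2.37. The median over all protein-coding genes was 3.46 (quartiles 2.05 and 5.06). For JUNB the values were 5.87 at ATF3, 5.74 at BATF2, 5.15 at BATF3, 3.77 at ATF7, 3.64 at JDP2, 3.56 at BATF and 2.03 at ATF2, against a median of 1.97 (quartiles 0.925 and 3.34). ATF3, BATF2 and BATF3 reached percentiles 96.4, 95.8 and 93.0 of all genes for JUNB, while ATF2 stood at 51.5, close to the middle gene. With no replicate value, neighbours in this order such as ATF3 and BATF2 cannot be ranked against each other. The place of BATF3 also rested on weak regions. When a −log10 q of 10 or higher was required, JUNB counts fell from 11 to 5 at BATF3 and from 15 to 9 at ATF3. BATF2 then had 8, ATF7 and JDP2 7 each, BATF 6 and ATF2 4. BATF3 thus came after JDP2, ATF7 and BATF in number, and values per 100 kb were not taken under this filter. Windows also differed in how crowded they were, with 12 other protein-coding genes around BATF2 and 10 around ATF7, against 1 to 4 around the other five. The part of gene density in the counts was not tested.

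**Figure D1:**
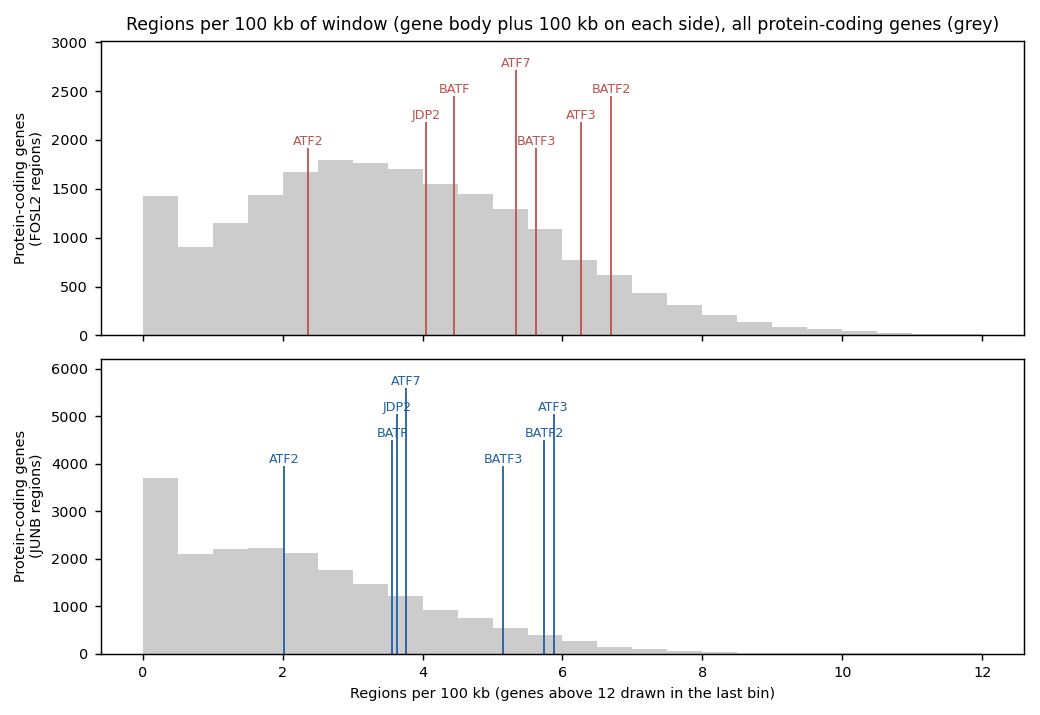
Regions per 100 kb of window (x axis) for all 19974 protein-coding genes (grey bars, number of genes on the y axis), FOSL2 above and JUNB below, with the 7 genes as lines. ATF2 lies near the middle of the JUNB distribution at 2.03, while ATF3, BATF2 and BATF3 lie between 5.15 and 5.87.

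The 7 windows were not independent. BATF and JDP2 lie 48.4 kb apart on chromosome 14, and 8 of the 10 FOSL2 regions of either gene were the same regions, as were 7 JUNB regions (87.5% of those of BATF, 77.8% of those of JDP2). ATF3 and BATF3 lie 65.6 kb apart on chromosome 1 and had 9 FOSL2 regions in common (56.2% of those of ATF3, 75% of those of BATF3) and 8 JUNB regions (53.3% and 72.7%). BATF2 (chromosome 11), ATF2 (chromosome 2) and ATF7 (chromosome 12) had windows of their own.

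**Figure D2:**
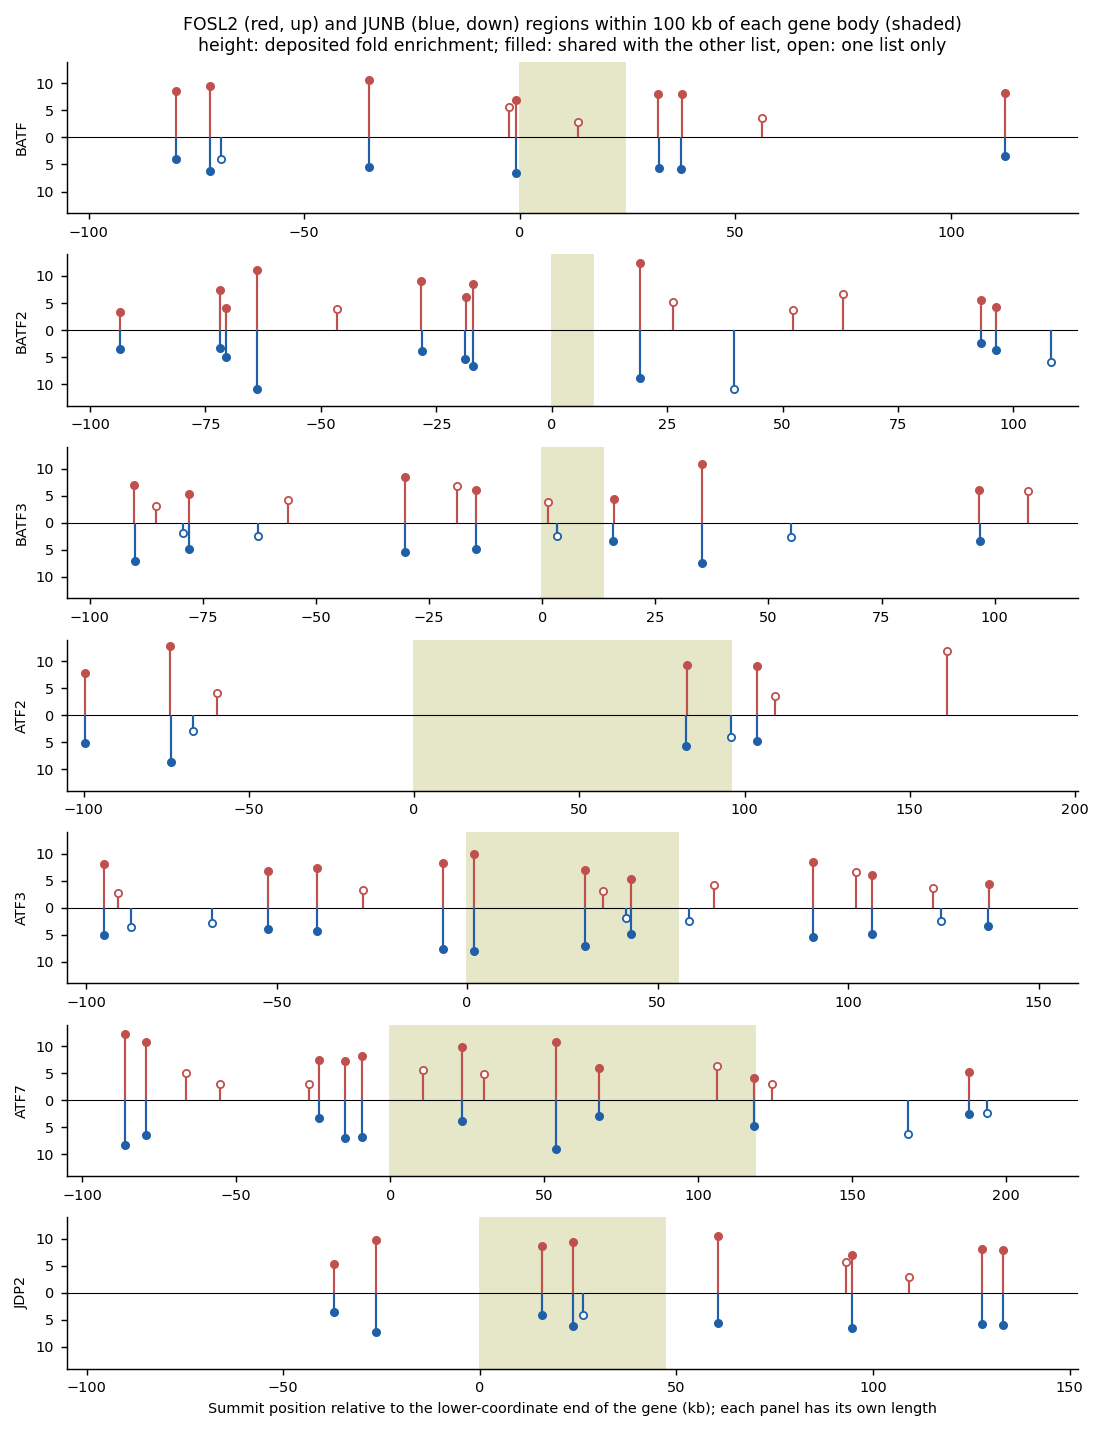
Each panel shows 1 gene, with the summit position in kb from the lower-coordinate end of the gene on the x axis and the deposited fold enrichment on the y axis, FOSL2 upward in red and JUNB downward in blue. Filled points are shared regions and open points are in 1 list only. ATF7 and ATF3 carry regions of both factors inside the shaded body, whereas the body of BATF2 is empty.

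FOSL2 regions around these genes were shared with JUNB in 45 of 69 cases (65.2%, 95% Wilson interval 53.5 to 75.4), against 41.1% of all FOSL2 regions. JUNB regions were shared in 45 of 58 cases (77.6%, 65.3 to 86.4), against 78.5% of all JUNB regions. The intervals cover counting error only, and neighbouring regions are not replicates. Shared FOSL2 regions were the stronger ones over the whole list, with a median fold enrichment of 7.85 against 4.40. Regions of the same deciles of FOSL2 fold enrichment were shared in 47.3% of cases over the whole list, and FOSL2 regions within 100 kb of any protein-coding gene in 42.1%. Gene by gene, the shared part of FOSL2 regions was 8 of 10 at JDP2, 10 of 14 at BATF2, 7 of 10 at BATF, 10 of 16 at ATF3, 10 of 17 at ATF7, 7 of 12 at BATF3 and 4 of 7 at ATF2. The median protein-coding gene with a FOSL2 region had 42.1% of them shared (quartiles 28.6 and 54.5%), so each of the 7 genes lay above the upper quartile. These are not 7 separate outcomes, since BATF and JDP2, and ATF3 and BATF3, had most of their FOSL2 regions in common. The gene with the lowest share, ATF2, had 57.1% (Wilson interval 25.1 to 84.2), an interval that includes the median gene. The intervals of BATF (39.68 to 89.22), BATF3 (31.95 to 80.67), ATF3 (38.64 to 81.52) and ATF7 (36.01 to 78.39) also included it. Only those of BATF2 (45.35 to 88.28) and JDP2 (49.02 to 94.33) lay above it. Shared JUNB regions made up 8 of 9 at JDP2, 7 of 8 at BATF, 10 of 12 at BATF2 and ATF7, 10 of 15 at ATF3, 4 of 6 at ATF2 and 7 of 11 at BATF3.

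Fold enrichment, the authors' ratio of signal over background for each region, was compared within its list. Only the values of shared pairs were set against each other between the lists, as given below. FOSL2 regions of the 7 genes had a median of 6.58 (quartiles 4.26 and 8.59), against 5.56 over the list (3.83 and 8.07), and JUNB regions a median of 4.92 (3.45 and 6.51), against 4.79 (3.62 and 6.51). Shared FOSL2 regions around the genes had a median of 8.08 and unshared ones 3.999, and the JUNB medians were 5.14 and 2.98. The gene medians for FOSL2 ran from 5.81 at BATF2 to 9.12 at ATF2, so ATF2 had the fewest FOSL2 regions and the highest median. The JUNB gene medians ran from 3.39 at BATF3 to 5.73 at JDP2. Of the 58 JUNB regions 30 lay above the median of the list. By gene these were 5 of 11 at BATF3, 7 of 15 at ATF3, 3 of 6 at ATF2 and 6 of 12 at ATF7. At BATF they were 5 of 8, at BATF2 7 of 12 and at JDP2 6 of 9.

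**Figure D3:**
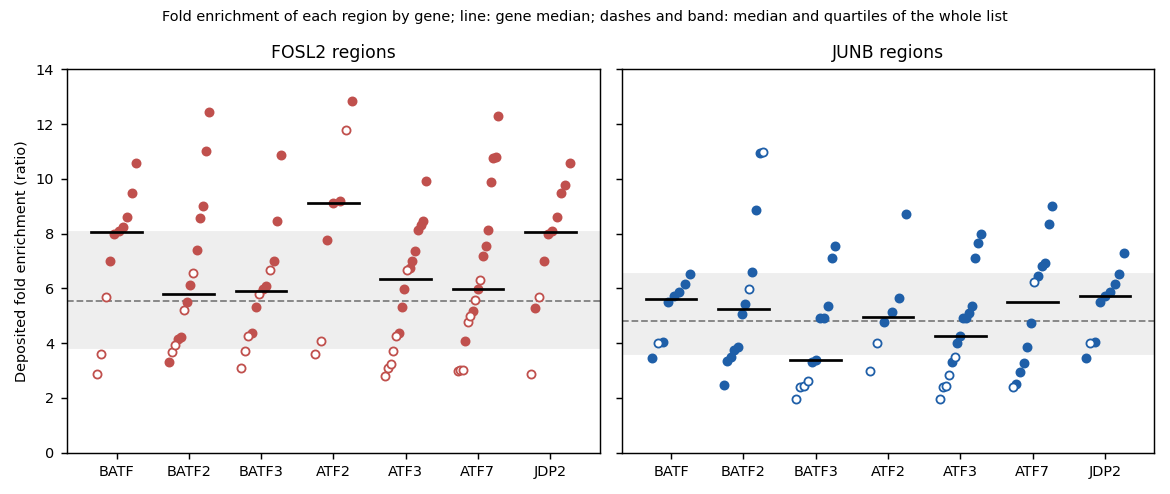
Deposited fold enrichment (y axis) of every region of each gene (x axis), FOSL2 left and JUNB right, with filled points for shared and open points for unshared regions. Black lines are gene medians, and the dashed line and band are the median and quartiles of the whole list (5.56 for FOSL2, 4.79 for JUNB).

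In the 45 shared pairs the FOSL2 and JUNB summits lay a median of 39 bp apart, between 0 and 183 bp, and 26 pairs (57.8%) were within 50 bp. Over all 31441 shared JUNB regions the median was 31 bp and 66.4% were within 50 bp. The closest pair, with both summits on the same base, stood 6283 bp before the start of ATF3. The widest, 183 bp, stood beyond the upper end of BATF3. The JUNB value exceeded the FOSL2 value in 4 of the 45 pairs (8.89%), against 11.3% of all pairs, on scales that were not made comparable between the lists. One of the 4 was the pair at the start of ATF7.

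**Figure D4:**
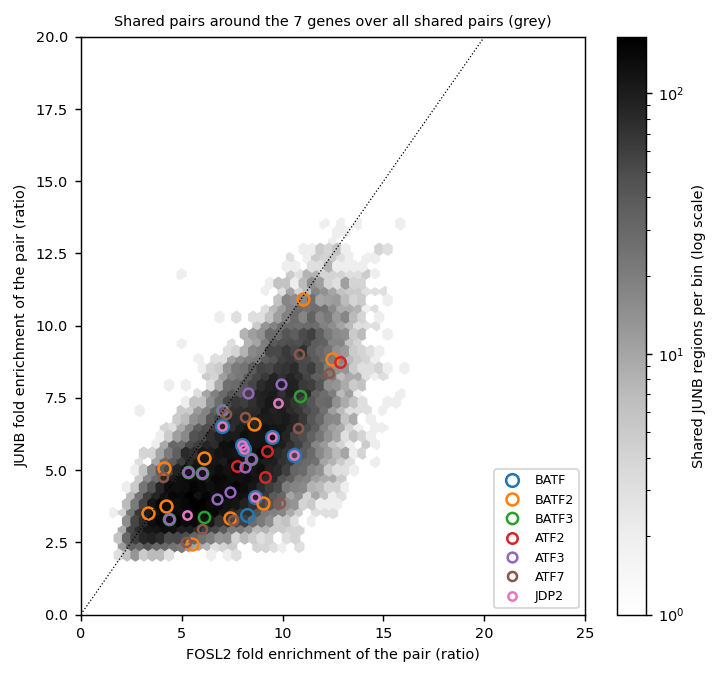
FOSL2 (x axis) against JUNB (y axis) fold enrichment of each shared pair, with the 45 pairs of the 7 genes as coloured rings, pairs of overlapping windows ringed for both genes, over all shared pairs as grey bins on a log colour scale. The dotted line marks equal values, 4 of the 45 pairs lie above it, and 9 of all pairs fall outside the axes.

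BATF (chromosome 14, 75522469 to 75546992) is best known from T and B cells. A shared pair lay just before its start: the FOSL2 region, from 75521190 to 75521952, had a fold enrichment of 6.99 with its summit 882 bp from the gene, and the JUNB region, from 75521341 to 75521726, had 6.53 at 880 bp. That JUNB value was the highest of the 8 at BATF, which ran down to 3.44. A FOSL2 region of 5.68 without a JUNB partner lay next to it, 2455 bp from the start. Inside BATF there was a single weak FOSL2 region of 2.88, 55.2% of the way through the gene, and no JUNB region. The strongest FOSL2 region of the window, 10.6 with a JUNB partner of 5.52, lay 34.9 kb before BATF and 13.5 kb beyond the end of JDP2. Further shared pairs lay beyond the far end of BATF, with FOSL2 and JUNB values of 8.08 and 5.73 at 7640 and 7686 bp and of 8.004 and 5.86 at 13068 and 12988 bp.

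JDP2 (chromosome 14, 75426943 to 75474107), the repressor that competes with AP-1, was bound inside the gene rather than at its ends. The nearest summits to either end were the pair 13459 bp (FOSL2) and 13393 bp (JUNB) beyond the upper end, and none of the 3 promoter windows listed for JDP2 in RefSeq was overlapped. Its body held 2 shared pairs, 33.7% and 50% of the way from its start, with FOSL2 values of 8.62 and 9.47 and JUNB values of 4.06 and 6.16. A JUNB region of 4.01 without FOSL2 lay 2658 bp from the nearest FOSL2 summit, at 55.6%. The highest JUNB value of the window, 7.31 with a FOSL2 partner of 9.76, lay 26.5 kb before the gene, and a weaker pair of 5.27 and 3.45 lay 37.1 kb before it. BATF and JDP2 thus had most regions in common, but the gene ends differed: BATF had a shared pair within 1 kb of its start and JDP2 had none.

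BATF2 (chromosome 11, 64987945 to 64996971), a BATF relative known as a suppressor of AP-1 and an interferon-induced gene, had no summit inside its body. The nearest pair lay beyond its upper end, with a FOSL2 region from 65006658 to 65007615 of 12.4 at 10090 bp and a JUNB region from 65006693 to 65007337 of 8.85 at 10061 bp. These stood at percentiles 98.5 and 93.2 of their lists. For none of the 14 FOSL2 and 12 JUNB regions was BATF2 the nearest protein-coding gene: 9 FOSL2 and 6 JUNB summits lay inside other coding genes, and the pair of 12.4 and 8.85 was 7099 and 7128 bp from ARL2. A group of 3 shared pairs lay in MAJIN, with FOSL2 values of 9.01, 6.13 and 8.59 and JUNB values of 3.86, 5.44 and 6.60. A pair of high values in both lists, 11.03 and 10.93, lay in PPP2R5B, 486 and 494 bp from its listed start.

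The highest JUNB value around any of the 7 genes had no FOSL2 region. It belonged to a region from 65026806 to 65027968, 30.4 kb from BATF2, with a fold enrichment of 10.98, percentile 98.9 of the list. Among the JUNB regions of at least this value 2.77% had no FOSL2 partner. Its summit lay 98 bp before the listed start of SNX15, which encodes a sorting nexin, and the nearest FOSL2 summit was 12940 bp away. The RefSeq promoter of SNX15 on GRCh38.p14 (chr11:65027189-65027488, plus strand, 250 bases before to 50 after the start) is shown because this summit falls on its base 153, and capitals mark the 21 bases centred on it.
SNX15: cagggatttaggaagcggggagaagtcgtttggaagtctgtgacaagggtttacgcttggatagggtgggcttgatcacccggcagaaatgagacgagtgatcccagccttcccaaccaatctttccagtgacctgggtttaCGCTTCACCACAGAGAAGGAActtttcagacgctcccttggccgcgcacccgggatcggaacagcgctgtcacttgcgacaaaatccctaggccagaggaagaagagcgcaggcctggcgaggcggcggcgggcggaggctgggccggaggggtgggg

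BATF3 (chromosome 1, 212686417 to 212699840), best known from dendritic cells, had a single FOSL2 region of 3.72 and a single JUNB region of 2.41 inside its body. They did not overlap, with summits 2043 bp apart. The nearest shared pair, of 4.39 (FOSL2) and 3.32 (JUNB), lay 2430 and 2247 bp beyond the upper end. A stronger pair of 10.9 and 7.55 lay 21.83 and 21.89 kb beyond that end and held the highest values of both lists in this window. The coding gene nearest to that pair was NSL1, at 4483 and 4418 bp. Below the lower end, a pair of 5.99 and 4.91 lay 14.6 kb away, and a FOSL2 region of 6.69 without JUNB lay 18.8 kb away. BATF3 shared 5 pairs with the window of its neighbour ATF3. It was the nearest protein-coding gene for 4 of its 12 FOSL2 regions and 3 of its 11 JUNB regions.

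ATF3 (chromosome 1, 212565407 to 212620777), the stress-induced member, had strong shared pairs on both sides of its first listed start. The pair 1867 bp (FOSL2) and 1865 bp (JUNB) inside the gene had the highest value of each list for ATF3, 9.93 for a region from 212566507 to 212567829 and 7.997 for one from 212566489 to 212567561. The pair 6283 bp before the start had 8.31 and 7.66. Neither of the 2 RefSeq promoter windows listed for ATF3 was overlapped by a region, and any start outside that listing was not examined. Farther inside, a pair of 7.01 and 7.09 stood about midway, at 55.8% and 56.1% of the body, with summits 175 bp apart, and a pair of 5.33 and 4.93 stood at 77.7% and 77.8%. The body also held an unshared FOSL2 region of 3.11 and an unshared JUNB region of 1.97, the lowest JUNB value around the 7 genes. Upstream, pairs at 39.4 kb, 52.2 kb and 95.2 kb had FOSL2 values of 7.37, 6.74 and 8.15 and JUNB values of 4.26, 4.01 and 5.10. For 8 of the 16 FOSL2 regions and 7 of the 15 JUNB regions ATF3 was the nearest protein-coding gene.

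ATF2 (chromosome 2, 175072259 to 175168203) had few regions for its length: a single shared pair lay inside its 95945 bp, with 9.21 (FOSL2) and 5.65 (JUNB) at 86.0% and 85.9% of the way from the lower end. At the upper end of the gene itself there was a JUNB region without FOSL2, from 175167633 to 175168765, with its summit 115 bp beyond the end and a fold enrichment of 4.02, percentile 34.1 of the list. The nearest FOSL2 summit was 7785 bp away, in a shared pair of 9.12 and 4.78 that lay 155 and 212 bp from ATP5MC3. The strongest pair of the window, 12.9 and 8.73, lay 73.7 and 73.6 kb beyond the lower end, inside CHN1. A FOSL2 region from 175233135 to 175234121 with a value of 11.8 (percentile 97.2) had no JUNB partner, and the nearest JUNB summit was 57559 bp away. It lay 65.4 kb from ATF2 and 51895 bp from ATP5MC3, the nearest coding gene, and 16.2% of FOSL2 regions of at least this value had no JUNB partner.

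ATF7 (chromosome 12, 53507856 to 53626382), a close relative of ATF2, differed from it in binding inside the gene: it held 7 FOSL2 and 4 JUNB summits, against 1 of each in ATF2. All 4 JUNB regions in ATF7 were shared. Their pairs stood at 19.7%, 45.5%, 57.2% and 99.7% of the way from the lower end, with FOSL2 values of 9.87, 10.8, 5.99 and 4.09 and JUNB values of 3.88, 9.01, 2.96 and 4.75. The second of these, a JUNB region from 53561390 to 53562210, held the highest JUNB value of the window. The unshared FOSL2 regions in the body had 5.59, 4.78 and 6.32. The body is also that of the read-through gene ATF7-NPFF, so the regions cannot be assigned to 1 of them. Outside, 3 pairs lay in MAP3K12, with JUNB values of 3.26, 6.94 and 6.82, and the strongest FOSL2 region, 12.3 with a JUNB partner of 8.35, lay 86.2 kb beyond the lower end, near AMHR2.

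The last of the 4 pairs in ATF7 covered its start, on the minus strand. The FOSL2 region ran from 53625742 to 53626809 and the JUNB region from 53625760 to 53626648, and their summits lay 291 and 285 bp inside the gene end and 6 bp apart. All 3 promoter windows listed for ATF7 in RefSeq were overlapped by both regions, and none of those listed for BATF, BATF2, ATF3 and JDP2 was overlapped by a region of either list. Only listed starts were compared. A region at an unlisted start, such as any inside the body of ATF3, would not be counted here, so these promoters cannot be called unbound. The values of 4.09 and 4.75 were at percentiles 29.2 and 49.3 of their lists. The promoter shown (chr12:53625947-53626246, minus strand, GRCh38.p14) is the one whose start is closest to the summits, which fall on its bases 156 (FOSL2) and 150 (JUNB), with the 21 bases around the JUNB summit in capitals.
ATF7: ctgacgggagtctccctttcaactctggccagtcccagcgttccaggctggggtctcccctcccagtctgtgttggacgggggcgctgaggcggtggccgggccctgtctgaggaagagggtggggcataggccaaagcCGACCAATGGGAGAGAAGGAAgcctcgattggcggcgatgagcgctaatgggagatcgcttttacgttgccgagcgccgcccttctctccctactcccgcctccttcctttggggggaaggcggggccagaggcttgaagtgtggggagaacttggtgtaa

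The AP-1 element TGANTCA and the CRE-type element TGACGTCA, searched on both strands, were in neither printed promoter, nor in any of the 25 promoter windows of 300 bases examined, the 10 of the members and 15 of other genes that a region overlapped. Of 34961 RefSeq promoter windows, 7.68% held TGANTCA and 1.85% TGACGTCA. Among windows with a summit of both factors the shares were 28.2% and 8.71%, and among those with a JUNB summit alone 3.59% and 3.77%. These counts describe the letters of the windows and not sites of binding, and sequence at the distal regions was not used here. Most of the 25 windows did not hold a summit of both factors, and some cover the same bases, as at ARL2 and ARL2-SNX15. Their lack of either element therefore cannot be set against the shares for windows with both summits.

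The members also differed from each other at their ends. The 7 genes are too few to set the counts below apart from the shares over all genes. A FOSL2 summit lay within 1 kb of an end of 2 of the 7 genes, BATF and ATF7, against 27% of all protein-coding genes. A JUNB summit did so at 3, BATF, ATF7 and ATF2, against 27.1%. A shared FOSL2 summit inside the body was found in 4 of the 7 (ATF2, ATF3, ATF7 and JDP2), against 33.9% of all genes. All 3 BATF-type genes lacked one, and their bodies were the shortest of the 7, from 9027 to 24524 bp, against 47165 to 118527 bp in the others. Of the 69 FOSL2 summits 16 lay in a member gene, 21 in other coding genes and 32 in none, and of the 58 JUNB summits 13, 17 and 28 did.

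Related genes were counted from a list of 10 ATF and CREB relatives and 6 partners or kinases. Over all protein-coding genes 96.4% had a FOSL2 region within 100 kb of the body, 90.9% a JUNB region and 87.4% a shared one. High counts in this list thus say little by themselves. All 10 relatives (ATF1, ATF4, ATF5, ATF6, ATF6B, CREB1, CREB3, CREB5, CREM and DDIT3) had a region of each factor and a shared one, and so did 5 of the 6 partners and kinases. The exception was IRF4, the lymphoid partner of BATF, with 1 FOSL2 region of 4.25 at the edge of the window, no JUNB region and no shared region within 100 kb, whereas IRF8 had 10 FOSL2 and 7 JUNB regions. The highest shared JUNB values were 12.54 near MAPK11, a p38 kinase, 10.9 in ATF1 and 10.4 in CREB5, with FOSL2 partners of 12.74, 10.9 and 10.1. The relatives had a median of 3.70 FOSL2 and 2.39 JUNB regions per 100 kb, against 5.34 and 3.77 for the 7 genes and 3.46 and 1.97 for all protein-coding genes. A JUNB summit lay within 1 kb of an end of 8 of the 10 relatives, against 27.1% of all genes. For FOSL2 the number was 6 of the 10, against 27% of all genes. DDIT3 and ATF4 had their strongest shared JUNB summit 183 and 430 bp from an end.

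The limit of 100 kb left out some strong regions close by. The nearest regions outside the window of ATF3 were the pair of 10.9 and 7.55 in the window of BATF3, 100.4 and 100.6 kb from the body of ATF3. The farthest inside were 94.8 and 94.9 kb away, with 8.15 and 5.10. For the other six genes the nearest region outside lay between 104.4 and 134.6 kb from the body.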

How the data were processed

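Binding regions of FOSL2 and JUNB in HaCaT cells were read from 1 narrow-peak list per factor. The submitters' processing notes name Bowtie2, SAMtools 1.8, Picard 1.89, MACS2, deepTools and hg38, without order. How the lists of 3 libraries were combined is not given in the sources used here. The deposited score was not used. The deposited fold enrichment is the authors' ratio for each region, and the deposited −log10 p was not used, while the −log10 q served as a filter. A summit is the region start plus the deposited offset. Regions on the autosomes and X were kept (75703 of 75704 FOSL2 rows and all 40061 JUNB rows), with coordinates from 1.

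Gene bodies and promoters came from RefSeq tables of GRCh38.p14, whose chromosome coordinates are those of hg38. Strand was known through listed promoters only. ATF2 and BATF3 had no entry. Exons were not used here. Percentiles are shares of genes or regions at or below a value. The pairing of regions was tested on simulated data. Python 3.11.15, pandas 2.3.3 and scipy 1.17.1 were used.

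The members and lists were chosen with earlier results of these data known. Named regions were, for each gene, the highest of each list, the nearest to its start or ends, and all inside it; other regions were named after their values were seen.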

Additional observations from a re-analysis of the deposited data

How the results depend on the processing

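Each list stood for 3 libraries, so no library could be left out. No paired analysis was possible because the lists carry no replicate numbers and no test between samples was made. Alternatives were windows of 50 and 10 kb, summits in place of whole regions, −log10 q of at least 10, a reciprocal overlap of 50%, summits within 100 bp and windows without JDP2. Windows without BATF3 and JDP2, or without BATF2 and ATF7, were chosen after seeing the data. Of 46 comparisons of the 6 summary values, 36 stayed within the counting interval or 1.5 times the count and 10 did not. The 69 FOSL2 regions became 26 within 10 kb and 38 without BATF2 and ATF7. The 58 JUNB regions became 38 within 50 kb, 22 within 10 kb, 36 with −log10 q of at least 10 and 34 without BATF2 and ATF7, since these settings admit fewer regions. With −log10 q of at least 10, 53.3% of FOSL2 and 88.9% of JUNB regions were shared (39.7% and 89.4% over the lists) and the JUNB median fold enrichment was 6.08. With a reciprocal overlap of 50%, 53.6% of FOSL2 and 63.8% of JUNB regions were shared, against 34.8% and 65.8% over the lists. The share of FOSL2 regions stayed above that of the list under every alternative run. Counts per gene also moved with the rule: with nearest genes only, BATF2 had 0 of either list and ATF3 had 8 FOSL2 and 7 JUNB regions, and within 10 kb ATF3 had 6 FOSL2 regions and BATF3 and JDP2 2 each. Depth of the libraries is unknown, so a gene without a region may be one below detection.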

Other observations

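The strongest JUNB regions without FOSL2 around these genes lay at the starts of other genes. Of 13 such regions, 3 exceeded the median of the JUNB list, with fold enrichments of 10.98, 6.24 and 5.996, and all 3 had their summit within 1 kb of a listed RefSeq start: 98 bp from SNX15, 73 bp from ATP5MC2, which encodes a subunit of the mitochondrial ATP synthase, and 88 bp from VPS51, which encodes a subunit of a vesicle tethering complex. Weaker ones also lay near starts, with 2.98 at 41 bp from CHN1 and 2.44 at 858 bp from GARIN4. Over the whole list 34.2% of 1265 JUNB regions above the median without FOSL2 lay that close to a listed start. In the FOSL2 list, 7 of the 24 unshared regions exceeded the median and 0 of the 7 were within 1 kb of a listed start, against 5.14% of 13591 over the list. Without the cut at the median, 5 of the 24 unshared FOSL2 regions (20.8%) lay that close to a listed start, against 5.52% over the list. For the 13 unshared JUNB regions the number was also 5 (38.5%), against 27.3% over the list. ATF2 and BATF3 had no listed start. The unshared JUNB region of 4.02, 115 bp beyond the upper end of ATF2, was therefore counted as far from a start. The 3 regions were chosen after their values were seen, and the difference between the lists was not tested.

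ATP synthase subunit c genes lay in the windows of both ATF2 and ATF7. ATP5MC3, next to ATF2, had a shared pair 155 and 212 bp from it, with values of 9.12 and 4.78, and ATP5MC2, in the window of ATF7, had the JUNB region of 6.24 without FOSL2, whose nearest FOSL2 summit was 19850 bp away.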
